A study of Mus musculus with 17 samples.

Results

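The genes described here are 7 annexins (Anxa1 to Anxa7) and 3 S100 genes (S100a6, S100a10 and S100a11), 10 genes out of 52373 identifiers shared by all libraries. They were taken by gene name, and the rule sets no threshold on their values. Their levels were read in ribosome-bound RNA from the corpus callosum, the band of myelinated axons joining both hemispheres, in male GFAP-Cre+/- Rpl22HA/wt mice. In these mice Cre under the GFAP promoter switches on an HA-tagged ribosomal protein Rpl22, and the tag was used to pull down ribosomes with their mRNA. Cuprizone is a copper-binding compound that causes loss of oligodendrocytes and myelin. Treated mice, aged 8 to 9 weeks, received it at 0.2% of the diet over 5 weeks and then returned to regular food. The 5-week groups stand for acute demyelination, those of 5.5 weeks for the start of remyelination, and those of 7 weeks for its late stage. Mock mice were age-matched, of the same genotype, and stayed on a normal diet. The labels list 17 libraries in 6 groups, with 3 in each group except the 5-week mock group, which has 2. The 5-week libraries are labelled batch 1 and the later ones batch 2. A Cre driven by GFAP can be active in any cell that has used this promoter, not in astrocytes alone.

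Annexins are proteins that bind calcium and then attach to acidic phospholipids on the inner face of membranes. They take part in vesicle traffic, in linking membranes to actin and in resealing a torn plasma membrane. S100 proteins are small proteins, most of which bind calcium and work as dimers, and several of them bind the tail of an annexin. S100a10 (also called p11) joins Anxa2 in a complex under the plasma membrane, and S100a11 binds Anxa1. In brain, S100a10 is widely used as a marker of one reactive state of astrocytes, and S100b, another member of the family, as a general astrocyte marker.

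Of the 17 deposited columns, 8 repeat another library of their group. In them, between 46.6% and 96.2% of genes with 500 or more counts equal the other library plus 1 to 10 counts, against at most 2.23% between libraries of different groups. These 8 were not used as samples. This left 9 libraries of 20797535 to 30400048 counts: 3 cuprizone and 2 mock libraries at 5.5 weeks, and 1 library per group at 5 and at 7 weeks. The 7-week cuprizone library stands apart from the rest. It has a count for 34576 genes, against 19496 to 23980 in the other 8. Its summed microglia markers reached 1010 CPM (counts corrected for library size), against 63.7 CPM in the 7-week mock library. Endothelial markers summed to 338 against 29 CPM, and pericyte and smooth muscle markers to 285 against 29.8 CPM. No 7-week value can be given without this library. Astrocyte markers were present in every library (12 of 12 genes with a count, 9282 to 17617 CPM in sum on a common scale of all 9 libraries). Oligodendrocyte markers (10012 to 23911 CPM) and neuron markers (7753 to 12846 CPM) were also abundant, so the RNA is not of astrocytes alone. In such bulk RNA, fewer cells of a type and less RNA per cell cannot be told apart.

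At baseline the 10 genes differed widely in level. Levels of different genes are compared here per kilobase of exon, in the 4 mock libraries. Exon length is that of all annotated exons of a gene merged, 3731 bases for Anxa2 and 1212 for S100a10. The length of the mRNA present was not measured and may be shorter, so the order depends on this choice. Anxa5, which binds phosphatidylserine, was highest, at 96.4 to 128 CPM per kb with a median of 104. Anxa6, a large annexin with a doubled core, came next at 54.6 to 61.9 CPM per kb. Neither range overlapped any other. S100a10 (19.5 to 32.2), Anxa7 (18.6 to 23.7) and S100a6 (15.5 to 34) followed, with ranges that overlapped one another. Anxa4 (1.87 to 2.45), Anxa2 (1.98 to 3.37) and S100a11 (1.39 to 3.59) lay about an order of magnitude lower and also overlapped. Anxa1 (0.0828 to 0.653 CPM per kb) and Anxa3 (0.146 to 0.483) were lowest. On this measure the subunits of 1 complex stood far apart at baseline, with a mock median of 27.8 CPM per kb for S100a10 and 2.07 for Anxa2.

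**Figure D1:**
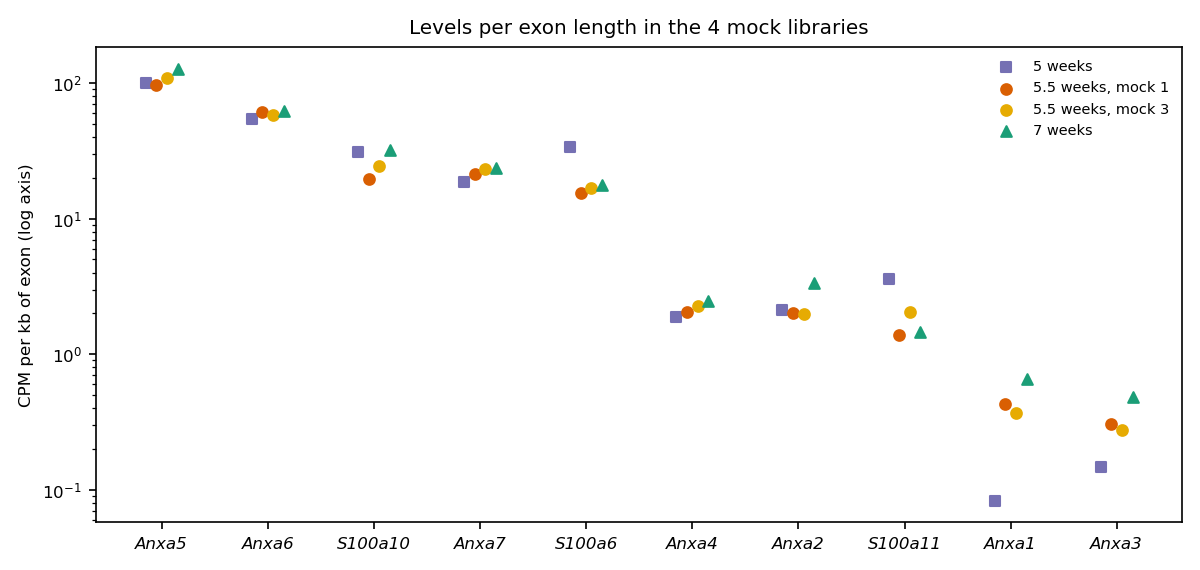
Levels of the 10 genes in the 4 mock libraries, as CPM per kilobase of exon on a log axis, ordered by their median; each point is 1 library. Anxa5 and Anxa6 sit alone at the top, and Anxa1 and Anxa3 at the bottom with medians of 0.399 and 0.289.

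The 5.5-week comparison asks how ribosome-bound RNA differs between cuprizone and mock mice when myelin repair begins, and it is the only comparison with replicates. Anxa2, Anxa3, Anxa4 and S100a11 rose, and no member was called lower. Called means an adjusted p under 0.05 in edgeR's quasi-likelihood test, adjusted over all 16086 genes tested. The share of all tested genes called higher was 1.08%, against 4 of the 10 members, and the share called lower was 0.392%, against 0 of 10 (no member was lower at an unadjusted p under 0.05, and DESeq2 and limma-voom called 0 lower). All 10 members passed the filter on low counts. Their median log2 fold change was 0.47, and that of all tested genes 0.00. In 6 members the 3 cuprizone libraries all lay above both mock libraries, and in 0 they all lay below. Over all tested genes these shares were 13.2% and 14.8%.

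Anxa2, the annexin that links membranes to the actin cortex, had 27.9, 26.9 and 21.3 CPM in the cuprizone libraries and 7.31 and 7.13 CPM in the mock libraries. Every cuprizone library was well above both mock libraries. The log2 fold change was 1.81 ± 0.16 (SE; edgeR adjusted p = 2.10e-04), and it was called in all 15 alternative analyses run. S100a10, its binding partner, had 27, 30 and 27.4 CPM after cuprizone and 23 and 28.5 CPM in mock. The groups overlapped, and the log2 fold change was 0.13 ± 0.14 (SE; edgeR adjusted p = 0.788). Without mock 1 it was -0.02. These values show the annexin of the complex higher at 5.5 weeks and no difference beyond the spread for its S100 partner.

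S100a11, the partner of Anxa1, had 2.5, 2.53 and 2.03 CPM after cuprizone and 0.693 and 1 CPM in mock, so the groups did not overlap. Its log2 fold change was 1.47 ± 0.29 (SE; edgeR adjusted p = 0.0266). The call was lost without mock 1 (adjusted p = 0.186), mock 3 (0.1) or cuprizone 1 (0.0821). Reads of S100a11 are less certain than those of the other members, because 41.1% of its 50-base stretches also occur in transcripts of near-copies such as Gm12854, Gm7665 and Gm29240. For the other 9 genes this share was at most 1.79%. Those 3 copies held at most 23 counts in any library used. Anxa1, known as a glucocorticoid-induced anti-inflammatory protein, was low, with 1.08, 1.76 and 1.42 CPM after cuprizone and 1.21 and 1.04 CPM in mock. The groups overlapped (log2 fold change 0.32 ± 0.30, SE; edgeR adjusted p = 0.768).

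The promoters of Anxa2 and S100a11 are shown because both genes rose and both windows hold the letters TGANTCA, the consensus of the AP-1 transcription factors. Those of Anxa4, which also rose, and of S100a6 are shown beside them and hold no such match. The sequences are RefSeq promoters of GRCm38.p6, 250 bases before to 50 bases after the gene start, written 5′ to 3′ along the gene, with TGANTCA matches on either strand in capitals. Anxa2 lies at chr9:69453433-69453732 (plus strand), S100a11 at chr3:93520246-93520545 (plus strand), Anxa4 at chr6:86793535-86793834 (minus strand, the upstream of its 2 listed starts) and S100a6 at chr3:90612644-90612943 (plus strand).

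Anxa2: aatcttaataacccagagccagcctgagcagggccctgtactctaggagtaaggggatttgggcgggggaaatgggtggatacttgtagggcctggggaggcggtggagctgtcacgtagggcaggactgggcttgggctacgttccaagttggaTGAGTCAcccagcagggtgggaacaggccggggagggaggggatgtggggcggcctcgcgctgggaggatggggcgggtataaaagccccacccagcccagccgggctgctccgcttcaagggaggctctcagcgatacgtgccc

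S100a11: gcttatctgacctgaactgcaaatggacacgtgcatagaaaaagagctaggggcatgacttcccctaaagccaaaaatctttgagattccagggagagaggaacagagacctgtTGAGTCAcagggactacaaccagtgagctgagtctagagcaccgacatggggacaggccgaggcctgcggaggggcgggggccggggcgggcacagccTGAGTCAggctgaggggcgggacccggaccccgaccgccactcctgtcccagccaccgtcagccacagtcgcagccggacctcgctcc

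Anxa4: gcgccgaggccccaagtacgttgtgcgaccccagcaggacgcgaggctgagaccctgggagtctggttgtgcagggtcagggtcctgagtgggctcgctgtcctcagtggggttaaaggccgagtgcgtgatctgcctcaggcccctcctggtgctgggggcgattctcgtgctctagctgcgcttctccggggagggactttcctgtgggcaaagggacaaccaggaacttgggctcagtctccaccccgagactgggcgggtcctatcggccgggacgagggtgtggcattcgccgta

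S100a6: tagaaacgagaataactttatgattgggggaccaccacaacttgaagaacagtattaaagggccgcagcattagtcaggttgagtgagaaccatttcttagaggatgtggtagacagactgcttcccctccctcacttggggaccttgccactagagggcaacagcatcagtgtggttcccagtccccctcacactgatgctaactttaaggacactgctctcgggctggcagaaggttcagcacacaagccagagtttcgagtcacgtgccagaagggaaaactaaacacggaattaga

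The Anxa2 window has 1 match, at bases 156 to 162 of the 300, and the S100a11 window has 2, at bases 115 to 121 and 213 to 219. All 3 read TGAGTCA and overlap no other motif searched. Of 32851 promoter windows of this length, 7.81% hold TGANTCA. The other letters searched on both strands were TTCNNNGAA for STAT factors (in 8.3% of windows), GGAATG for TEAD (14.7%), GGGCGG for Sp1 (35.7%), TGACGTCA for the cAMP response element (1.79%) and TATAAA, the TATA box (13.6%). Among the printed windows, TATAAA was found in that of Anxa2 and GGGCGG 3 times each in those of Anxa2 and S100a11 and 1 time in that of Anxa4. The S100a6 window held none of the 6. RefSeq windows were matched by symbol for 7 of the 10 members, all but Anxa3, Anxa6 and S100a10. Of these 7, 2 hold TGANTCA and 5 do not (Anxa1, Anxa4, Anxa5, Anxa7 and S100a6), and the printed windows were chosen with the matches known. A match is a stretch of letters and was not tested as a binding site.

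Anxa3, an annexin also described in microglia, had 4.43, 4.33 and 3.3 CPM after cuprizone and 1.07 and 0.965 CPM in mock at 5.5 weeks. All cuprizone libraries were above both mock libraries, by 1.97 ± 0.26 on the log2 scale (SE; edgeR adjusted p = 0.00313). Leaving out mock 3 gave an adjusted p of 0.054. Anxa4, found at membranes of polarised and secretory cells, had 19.6, 16.2 and 16 CPM after cuprizone and 9.25 and 10.1 CPM in mock, again with no overlap (log2 fold change 0.84 ± 0.15, SE; edgeR adjusted p = 0.0204). This call was lost without mock 1 (adjusted p = 0.14), mock 3 (0.113) or cuprizone 1 (0.0967). Summed microglia markers were 52.2 to 71.1 CPM in the cuprizone and 37.4 to 43 CPM in the mock libraries at 5.5 weeks. Of 11 microglia markers tested, edgeR called 0 (6 were higher with unadjusted p below 0.05; DESeq2 called 1 and limma-voom 0), and their median log2 fold change was 0.67. Of 11 tested markers of disease-associated microglia, a phagocytic state, 5 rose, namely Itgax, Spp1, Clec7a, Lyz2 and Lgals3. Itgax (0 and 0.0371 CPM in mock) and Clec7a (0.104 and 0 CPM) passed the filter on low counts through the cuprizone libraries only. These genes could therefore be called only higher. Lyz2, the largest of the 5 in level after Lgals3, had 3.58, 6.28 and 3.8 CPM after cuprizone and 0.693 and 0.557 CPM in mock (edgeR adjusted p = 0.00185). The median of that list was 0.90. Endothelial markers summed to 21.8 to 25.7 CPM after cuprizone and 23 to 28.8 CPM in mock. Astrocyte markers summed to 13833 to 16199 CPM against 10874 to 11333 CPM, and Gfap, the astrocyte intermediate filament, was the only 1 of 12 called higher. Gfap had a mean of 5425 CPM after cuprizone and 1146 CPM in mock, while the median log2 fold change of the 12 was -0.17 and 4 were lower with unadjusted p below 0.05 (DESeq2 called 1 lower). Mature oligodendrocyte markers summed to 18976 to 23319 CPM after cuprizone and 15991 to 16716 CPM in mock, with Mog, Mag and Ugt8a called higher and Aspa lower. Among markers of oligodendrocyte precursors Gpr17 was called higher (65.7 against 34.2 CPM on average), and among those of the choroid plexus Ttr (20.8 against 1.39 CPM). Fibroblast and meningeal markers summed to 134 to 156 CPM after cuprizone and 332 to 346 CPM in mock, mostly from Ptgds, which fell (118 against 297 CPM on average), while Foxc1 was called higher. Foxc1 (0.0693 and 0.0371 CPM in mock) also passed the filter through the cuprizone libraries only. The part of these cell types in the 4 member calls was not tested.

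The most abundant members differed less. Anxa5 had 261, 268 and 220 CPM after cuprizone and 167 and 186 CPM in mock. These groups did not overlap, but its log2 fold change of 0.50 ± 0.12 (SE) missed the threshold (edgeR adjusted p = 0.0719). It was called in 6 of 15 alternatives, among them DESeq2 (adjusted p = 0.0112). S100a6, also called calcyclin, had 27.4, 32.3 and 26.8 CPM after cuprizone and 20.7 and 22.1 CPM in mock. It too separated the groups without being called (log2 fold change 0.43 ± 0.13, SE; edgeR adjusted p = 0.199). Anxa6 had 194, 170 and 199 CPM after cuprizone and 175 and 164 CPM in mock, and Anxa7, also called synexin, 123, 120 and 135 against 123 and 134 CPM. Both overlapped between groups, with log2 fold changes of 0.15 ± 0.11 and -0.03 ± 0.11 (SE; edgeR adjusted p = 0.687 and 0.945).

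**Figure D2:**
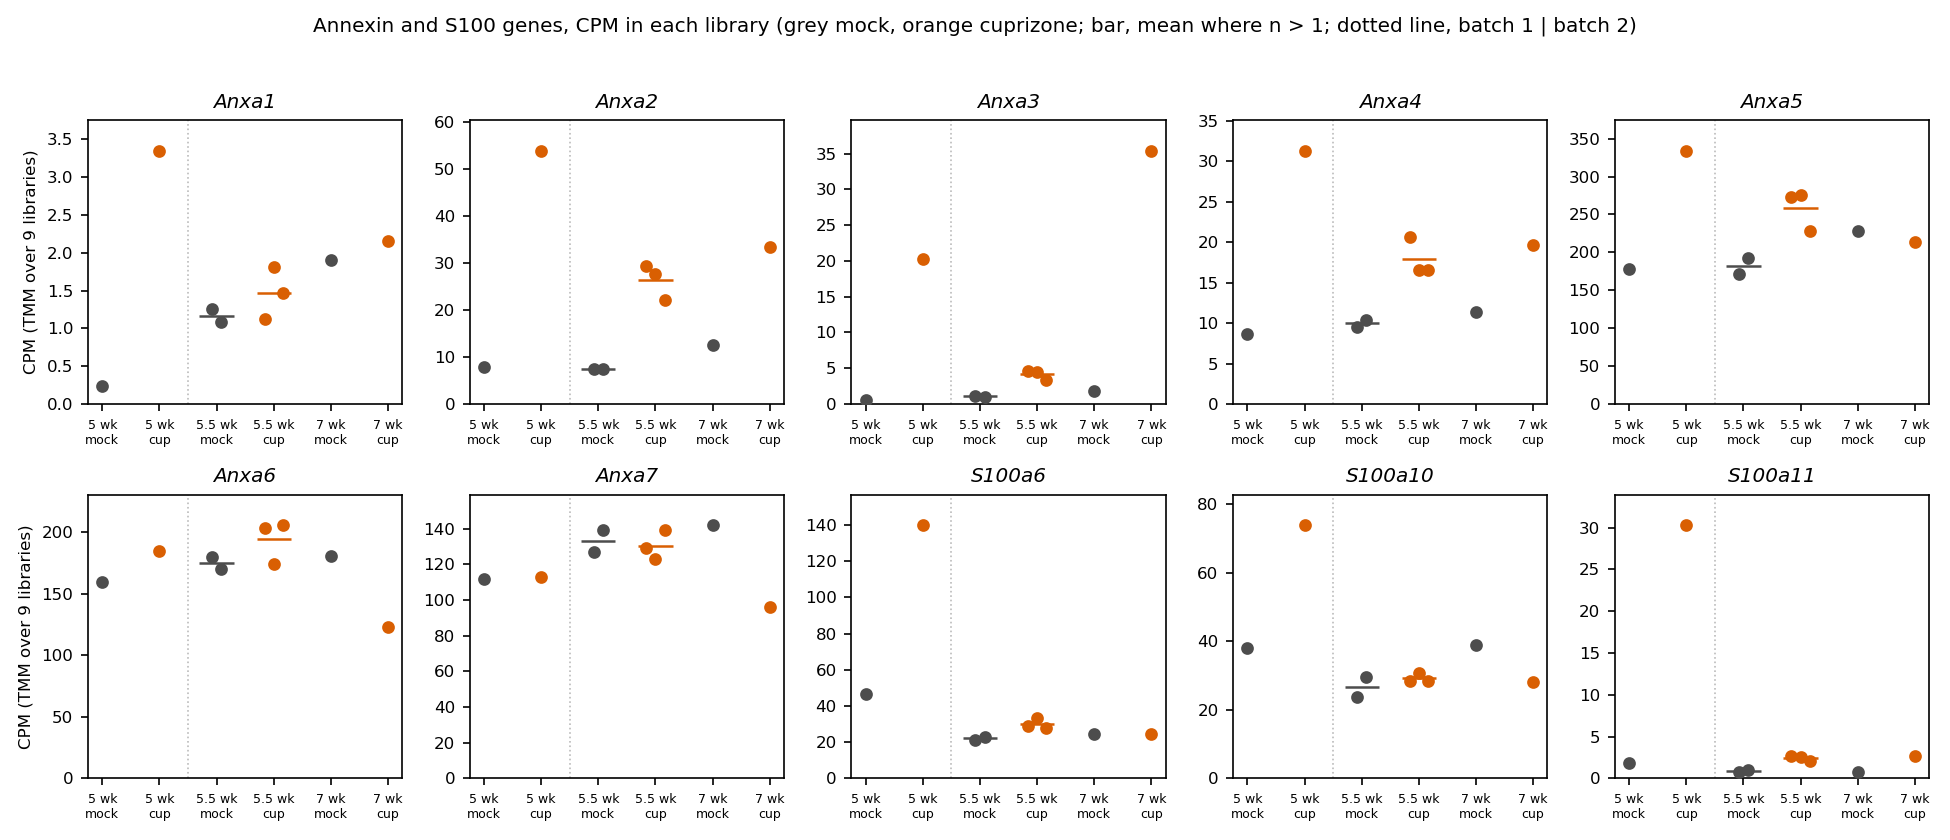
CPM of each gene in the 9 libraries used, 1 point per library, with all 9 scaled together, grey for mock and orange for cuprizone; bars are means where a group has more than 1 library and the dotted line parts the batches. Anxa2 at 5.5 weeks lies between 22 and 29.3 CPM after cuprizone and at 7.4 and 7.51 CPM in mock, and the 7-week cuprizone point of Anxa3 stands highest at 35.4 CPM.

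The 5-week comparison describes the genes at acute demyelination in 1 library per group, so differences between mice are unknown and no p is given. Intervals are exact 95% intervals that cover counting error only. At least 2-fold higher were 6 of the 10 members, at a minimum of 5 CPM in 1 of the libraries, and 0 were at least 2-fold lower. Over all 11570 genes past that minimum these shares were 8.89% and 12.2%. Anxa3 and S100a11 reached the minimum in the cuprizone library only, so a large ratio was needed for them to be counted. Anxa1 stayed under it in both libraries.

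Among the annexins, Anxa3 had 21.3 CPM in the cuprizone and 0.536 CPM in the mock library, a ratio of 39.7 (22 to 80.1) from 458 and 11 counts. Anxa2 had 56.7 against 8.05 CPM, 7.04-fold higher (5.98 to 8.34). Anxa4 had 33 against 8.78 CPM, 3.76-fold higher (3.19 to 4.45). These 3 are the annexins called at 5.5 weeks, and each ratio was larger than its 5.5-week fold of 3.93, 3.51 and 1.79. Anxa5 had 352 against 180 CPM, 1.96-fold higher (1.88 to 2.04), Anxa6 194 against 162 CPM (1.2-fold, 1.15 to 1.26) and Anxa7 119 against 113 CPM (1.05-fold, 0.992 to 1.11). Anxa1 had 76 counts in the cuprizone and 5 in the mock library, 3.53 against 0.244 CPM, or 14.5-fold (5.95 to 45.9). The other deposited 5-week mock column holds 34 counts for Anxa1, so its ratio rests on the single low mock value.

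All 3 S100 members were at least 2-fold higher at 5 weeks. S100a11 had 31.9 CPM in the cuprizone and 1.85 CPM in the mock library, 17.2-fold higher (12.4 to 24.5). S100a6 had 147 against 47 CPM, 3.13-fold higher (2.92 to 3.37). S100a10 had 77.8 against 38.3 CPM, 2.03-fold higher (1.86 to 2.21), just past the 2-fold line with an interval on both sides of it. S100a10 and S100a6 thus differed here and were not called at 5.5 weeks. The 2 times are in different batches, which cannot be told apart from time, and the difference between them was not tested. In the deposited column of 5-week cuprizone 2, which repeats cuprizone 1 for most genes, 8 of the 10 members lie more than 10 counts above it, for example Anxa2 with 1943 against 1219 counts. With the mean of the deposited columns in each group, 5 members were at least 2-fold higher.

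Marker sums also differed at 5 weeks. Microglia markers summed to 97.8 CPM in the cuprizone and 50.7 CPM in the mock library, with 5 of 7 measured markers at least 2-fold higher, 4 of which passed the minimum through the cuprizone library only. Tmem119, Csf1r, Trem2 and Fcrls, under the minimum, had ratios of 0.999 to 1.2, and Itgam had 0 counts in both libraries. Of 9 measured markers of disease-associated microglia, 6 were at least 2-fold higher, all 6 past the minimum through the cuprizone library only. Spp1 was at 212 against 0 and Lyz2 at 148 against 0 counts. Lpl was the 1 marker of this list at least 2-fold lower, at 10.9 against 23.6 CPM. The list summed to 5698 against 7176 CPM, of which Apoe made up 5583 and 7114 CPM. Endothelial markers were lower, at 7.81 against 31.2 CPM, with Cdh5 and Tek at 0 counts in both. Pericyte and smooth muscle markers were at 28.9 against 22.9 CPM, and fibroblast and meningeal markers at 17.1 against 561 CPM, of which Ptgds made up 10.6 and 550 CPM. Mature oligodendrocyte markers were at 10546 against 16029 CPM, with 8 of 12 at least 2-fold lower. Neuron markers were at 9269 against 12991 CPM and ependymal markers at 61.5 against 30.5 CPM. Among 12 astrocyte markers the median log2 ratio was -0.55, with Gfap at 9691 against 900 CPM. The part of these cell types in the 5-week member ratios was not tested.

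The 7-week comparison describes late remyelination, again in 1 library per group and with the cuprizone library that stands apart. At least 2-fold higher were 2 of the 10 members, Anxa2 and Anxa3, and 0 were at least 2-fold lower. Anxa3 reached the minimum in the cuprizone library only, so it too could be counted only with a large ratio. Anxa1 and S100a11 stayed under the minimum in both libraries and could not be counted, which left 8 measured members. Over all 12173 genes at 5 CPM or more in 1 of the libraries the shares were 9.9% and 5.54%, from 1205 and 674 genes. With library totals in place of TMM scaling those counts became 2197 and 112. The median log2 ratio of all these genes was -0.23, and 0.22 with scaling by library totals, so values are also given relative to the median.

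Anxa3 had 36.1 CPM in the 7-week cuprizone and 1.91 CPM in the mock library, 18.9-fold higher (14.3 to 25.7), or 4.42 above the median on the log2 scale. This cuprizone library is the one with raised microglial, endothelial and pericyte markers: the microglia genes Cx3cr1 and Tmem119 had 100 against 4.2 and 39.9 against 3.36 CPM, and the endothelial gene Cldn5 58 against 0.534 CPM. All 12 microglia markers and 10 of 11 measured endothelial markers were at least 2-fold higher, but 8 of these 12 and all 10 endothelial markers passed the minimum through the cuprizone library only. Of 10 neuron markers 3 were at least 2-fold higher (Meg3, at 1608 against 45.9 CPM, Gad1 and Gad2) and 1 was lower. Of 5 measured fibroblast and meningeal markers 3 were higher, all through the cuprizone library only, and 0 lower. Mature oligodendrocyte markers summed to 14464 against 21541 CPM, and those of oligodendrocyte precursors to 477 against 969 CPM. The part of these differences in the Anxa3 value was not tested. Anxa2 had 33.9 against 13.6 CPM, 2.49-fold higher (2.2 to 2.82), and 1.54 above the median. Anxa4 had 20.1 against 12.3 CPM, 1.63-fold higher (1.42 to 1.87), and 0.93 above the median. S100a11 had 77 against 21 counts, 2.69 against 0.801 CPM and under the minimum, a ratio of 3.36 (2.05 to 5.73), or 1.89 above the median on the log2 scale.

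The remaining members were near or below the mock level at 7 weeks. Anxa1 was at 2.2 against 2.06 CPM, 0.32 above the median on the log2 scale. Anxa5 was at 219 against 247 CPM and S100a6 at 24.9 against 26.4 CPM, with log2 ratios of -0.17 and -0.09. Both ratios turned to 0.25 and 0.34 with library totals, and relative to the median of all genes they were 0.05 and 0.14. S100a10 was at 28.6 against 42.3 CPM (log2 ratio -0.56), Anxa6 at 125 against 197 CPM (-0.65) and Anxa7 at 97.9 against 154 CPM (-0.65). Relative to the median these 3 were at -0.34, -0.42 and -0.43.

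**Figure D3:**
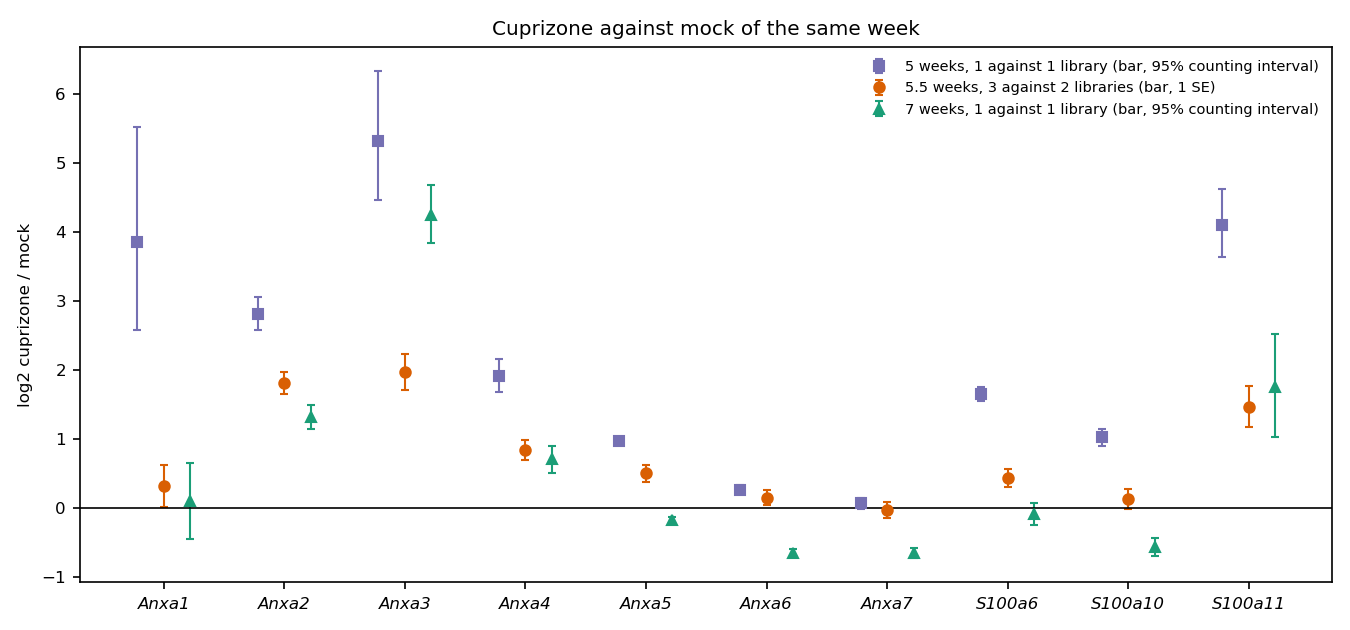
Log2 ratio of cuprizone to mock for each gene at 5 weeks (squares), 5.5 weeks (circles) and 7 weeks (triangles); bars are 95% counting intervals at 5 and 7 weeks, with 1 library per group, and 1 SE at 5.5 weeks, with 3 against 2 libraries. Anxa2, Anxa3, Anxa4 and S100a11 lie above 0 at each time, while Anxa6 and Anxa7 lie near 0 at 5 and 5.5 weeks and at -0.65 on the plotted 7-week scale.

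Whether the cuprizone difference changed from 5.5 to 7 weeks, both in batch 2, was tested as an interaction in a fit of all 9 libraries. This fit assumes that the lone 7-week libraries vary like those of 5.5 weeks. Of 20292 genes tested, 10.3% had a more positive and 6.92% a more negative difference at 7 weeks, with a median of 0.09. Among the members, Anxa3 was called more positive, by 2.36 ± 0.40 on the log2 scale (SE; edgeR adjusted p = 6.92e-04). Anxa6 was called more negative, by -0.71 ± 0.22 (SE; edgeR adjusted p = 0.0301). Anxa6 lost this call with DESeq2 (adjusted p = 0.0573), without 5.5-week cuprizone 1 (0.065) or cuprizone 3 (0.0773). The other 8 were not called. For Anxa2 the difference was -0.41 ± 0.28 (SE; edgeR adjusted p = 0.325), for Anxa4 -0.04 ± 0.29 and for S100a11 0.36 ± 0.51 (edgeR adjusted p = 0.944 and 0.666).

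**Figure D4:**
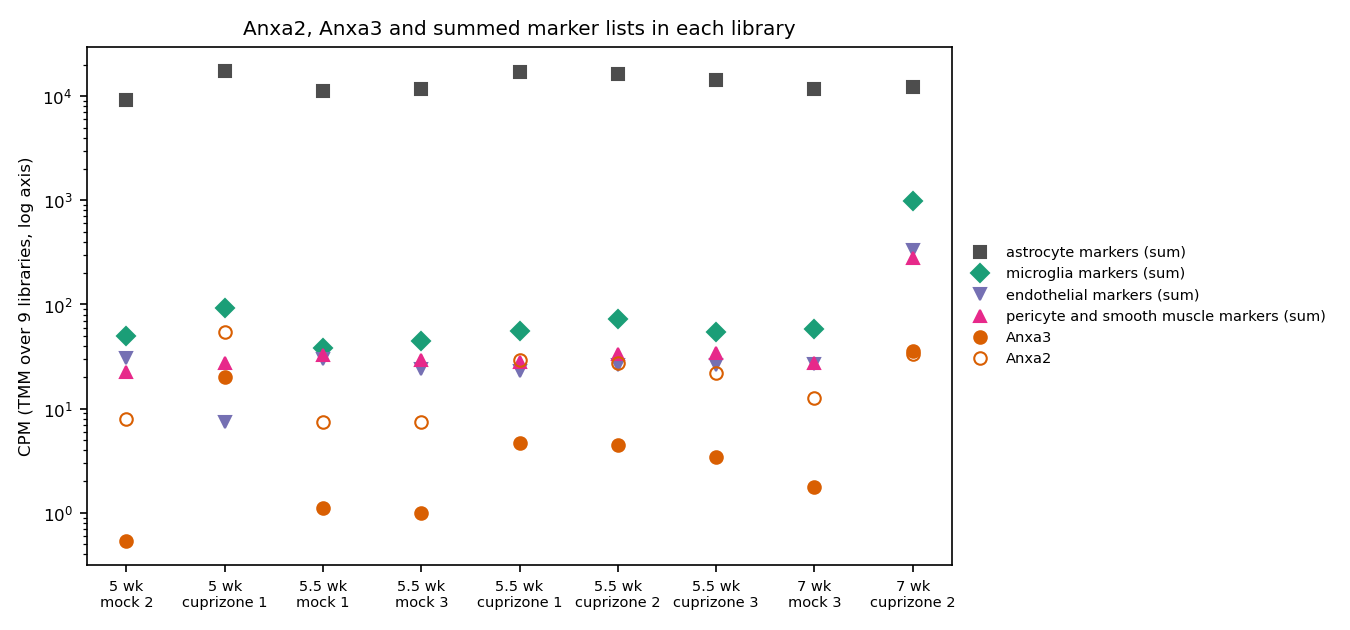
CPM of Anxa2 and Anxa3 and summed CPM of 4 marker lists in each of the 9 libraries, on a log axis with all libraries scaled together; each point is 1 library. In the 7-week cuprizone library the microglia sum stands at 990 CPM, against 38.5 to 92.8 CPM in the other 8, and Anxa3 at 35.4 CPM, while the astrocyte sum of 12283 CPM lies within the range of the others.

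Patterns over the 9 libraries were compared by Pearson's r of log2(CPM + 1) among 9707 genes with a mean of at least 10 CPM, as a description, since the libraries share batches and groups. The genes most like Anxa2 were Arpc1b, a subunit of the actin-branching Arp2/3 complex (r = 0.985), Anxa4 (0.975), Gbp3, an interferon-induced GTPase (0.965), and Ninj1, a protein of plasma membrane rupture (0.964). S100a10 was at r = 0.444 with Anxa2, rank 1132 among the 9707 genes. The genes most like S100a10 were Mrps6, a mitochondrial ribosomal protein (r = 0.975), Upp1, uridine phosphorylase (0.973), Gng5, a G protein subunit (0.971), and 1810013L24Rik (0.971). S100a6 was at r = 0.918 with S100a10, rank 47.

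No other gene of either family was called by edgeR at 5.5 weeks. Of 5 further annexins 2 were tested and 0 called by edgeR (0 at an unadjusted p under 0.05, 0 by DESeq2 or limma-voom). Anxa11, a relative with an RNA-granule tethering role, had 120, 89.7 and 113 CPM after cuprizone and 91.8 and 100 CPM in mock, which overlap. Its level differed between batches, at 12.4 and 13.6 CPM in the 5-week mock and cuprizone libraries, and the cause was not tested. Anxa8, named after its values were seen, had 0.709, 0.316 and 0.384 CPM after cuprizone and 0.866 and 0.891 CPM in mock, which do not overlap (log2 fold change -0.86 ± 0.40, SE; edgeR adjusted p = 0.471). At 7 weeks Anxa11 was the 1 gene of this list at least 2-fold lower, at 43.2 against 115 CPM (log2 ratio -1.41). Of 14 further S100 genes 5 were tested and 0 called by edgeR (1 with an unadjusted p below 0.05; 0 by DESeq2 or limma-voom), with a median of 0.04. That 1 gene was S100a3, also named after its values were seen, with 0.709, 0.903 and 1.07 CPM after cuprizone and 0.381 and 0.557 CPM in mock (log2 fold change 0.93 ± 0.38, SE; edgeR adjusted p = 0.39). S100b had 127, 140 and 111 CPM after cuprizone and 114 and 131 CPM in mock (log2 fold change 0.04; edgeR adjusted p = 0.941). S100a16 was at 0.14, S100a1 at -0.15 and S100a13 at -0.26, with edgeR adjusted p from 0.576 to 0.739.

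At 5 weeks these 4 S100 genes had positive log2 ratios, all under 2-fold: 0.84 for S100a16, 0.75 for S100b, 0.67 for S100a1 and 0.39 for S100a13. At 7 weeks all 4 were negative, at -0.59, -0.72, -0.88 and -0.95, and below the median of all genes of -0.23. S100a6 lies in the S100 gene cluster of chromosome 3, S100a10 and S100a11 lie near each other elsewhere on that chromosome, and S100b lies on chromosome 10 (RefSeq, GRCm38.p6).

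Among 26 partners of these proteins, 21 were tested at 5.5 weeks, 2 rose and 0 fell, with a median of 0.12. Plat, tissue plasminogen activator, whose activity the Anxa2 complex is known to promote, had 99.2, 88.2 and 72.8 CPM after cuprizone and 47.2 and 33 CPM in mock (log2 fold change 1.11 ± 0.17, SE; edgeR adjusted p = 0.00946). At 5 weeks it was lower in the cuprizone library, at 28.2 against 44.3 CPM, and at 7 weeks higher, at 75.5 against 38.8 CPM (1.94-fold, 1.8 to 2.1). Lgals3, galectin-3, a sugar-binding protein that is also on the list of disease-associated microglia markers, rose by 1.43 ± 0.23 (SE; edgeR adjusted p = 0.0106). It was 15.3-fold higher at 5 weeks (11 to 21.9) and 10.4-fold at 7 weeks (8.02 to 13.7). In the mock libraries it was under the 5 CPM minimum, at 1.8 and 2.36 CPM, so only a large ratio could be counted. Ahnak, the giant scaffold that binds the Anxa2 and S100a10 complex, is named after its values were seen. It had 5.57, 6.28 and 4.95 CPM after cuprizone and 3.88 and 2.49 CPM in mock, not called (log2 fold change 0.81 ± 0.23, SE; edgeR adjusted p = 0.15). At 5 weeks Ahnak was 10.6-fold higher (7.81 to 14.6), with the mock library under the minimum at 2.24 CPM. Of 15 partners measured at 5 weeks, 3 were at least 2-fold higher and 2 lower, and at 7 weeks 3 of 18 were higher and 0 lower. Of those higher, 2 at 5 weeks and all 3 at 7 weeks passed the minimum through the cuprizone library only. The shares over all measured genes were 8.89% and 12.2% at 5 weeks and 9.9% and 5.54% at 7 weeks. The formyl peptide receptors Fpr1 and Fpr2, receptors of Anxa1, had 0 counts in both 5-week libraries, which allows up to 3 counts in each.

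Of 20 genes of plasma membrane repair, 18 were tested at 5.5 weeks, 1 rose and 0 fell, with a median of 0.08. The gene that rose was Cav1, caveolin-1, with 28.1, 27.4 and 28.8 CPM after cuprizone and 15.1 and 19.3 CPM in mock (log2 fold change 0.71 ± 0.14, SE; edgeR adjusted p = 0.0297). At 5 weeks Cav1 was 3.78-fold higher (3.38 to 4.24). Of 15 repair genes measured at 5 weeks, 3 were at least 2-fold higher and 1 lower, and at 7 weeks 1 of 15 was higher and 0 lower. The shares over all measured genes were 8.89% and 12.2% at 5 weeks and 9.9% and 5.54% at 7 weeks.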

How the data were processed

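Values are counts per Ensembl gene, deposited by the authors without normalization. Tools named in the submitters' processing notes are STAR 2.5.4b, featureCounts 1.6.0 and FastQC 0.11.9. The notes name GRCm38/mm10 and GRCm39/mm39 without roles, and the strand setting is not given in the sources used here. The 8 deposited columns that repeat another library hold whole numbers of no stated unit, treated as a score and used only in alternatives. Symbols and exon lengths are from GENCODE M21 (GRCm38), which may not be the build the authors used. All 10 members had an identifier in both batches.

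The 5.5-week test was edgeR 4.0.16 in R 4.3.3 (glmQLFit, robust, two-sided, Benjamini-Hochberg over all genes, threshold 0.05), with TMM factors, after filterByExpr at a minimum count of 10. It had 3 residual degrees of freedom. Each library is labelled a biological replicate, but given the repeated columns the p-values may reflect technical spread only. CPM use effective library sizes of the comparison. At 5 and 7 weeks ratios are of TMM-scaled CPM, the log2 ratio with a prior count of 2, and intervals are exact (Clopper-Pearson). PCR reads are not independent molecules. The floor for 0 counts is 3. DESeq2 1.42.0 and limma-voom (limma 3.58.1) were alternatives. The test was tested on simulated data. Leaving out libraries, a replicate block, other scalings and filters, and the deposited repeats were also tried.

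The members, lists and tests were chosen with earlier results of these data known. All members are named; of the other family genes, those with a mean of at least 1 CPM; of partner and repair genes, those called at 5.5 weeks. Anxa8, S100a3, Ahnak, Fpr1 and Fpr2 fall outside this rule and were named after their values were seen.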

Additional observations from a re-analysis of the deposited data

Results flagged for a closer look

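The cuprizone difference changed between 5.5 and 7 weeks for 2 of the 10 genes, by the interaction test in the fit of 9 libraries, 1 in each direction. Over all genes tested 10.3% were called more positive and 6.92% more negative, so this count is near that of genes in general. For Anxa3 the difference was larger at 7 weeks by 2.36 log2 units (adjusted p = 6.92e-04 in edgeR), and it was called in all 8 alternatives of that test, with values from 2.23 to 2.44. For Anxa6 the difference at 7 weeks was lower, at -0.71 (edgeR adjusted p = 0.0301), and the call was lost in 3 of the 8 alternatives. Both rest on the single 7-week cuprizone library, which all 8 alternatives kept, so these cannot show how far the values depend on it. That library had raised microglial, endothelial and pericyte markers, among other differences, whose part in both values was not tested.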

How the results depend on the processing

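The 5.5-week calls rest on few libraries. Leaving out 1 library at a time gave between 1 and 4 called members: 2 without mock 1, 1 without mock 3 (Anxa2), 2 without cuprizone 1 and 4 without cuprizone 2 or 3. The other 10 alternatives at 5.5 weeks gave 4 to 6 called members, all higher. With the replicate block 5 members were called, Anxa5 being the addition. The calls over all genes went from 173 higher and 63 lower to 481 and 269. Deviations of same-numbered libraries within their groups had r = 0.09 for number 1 and -0.10 for number 3. With only 2 mock libraries, the deviations of mock 3 are those of mock 1 with the sign turned. These r values therefore cannot show whether same-numbered libraries belong together. Across the 15 alternatives the sign turned for Anxa7, whose log2 fold change of -0.03 became 0.04 without mock 3 (-0.09 without mock 1), 0.00 without cuprizone 2, 0.00 with the replicate block, 0.01 with the 6 and 0.03 with the 17 deposited libraries, and for S100a10, at -0.02 without mock 1 and 0.31 without mock 3. At 5 weeks 5 to 7 and at 7 weeks 2 to 3 members were at least 2-fold higher under each of 5 alternatives. For the change from 5.5 to 7 weeks 1 member was called with DESeq2 and 5 with the 17 deposited libraries, and between 1 and 4 with 1 library of 5.5 weeks left out. There Anxa4 turned from -0.04 to 0.04 with DESeq2, 0.03 without mock 1 and 0.07 without cuprizone 1 (-0.12 without mock 3), and Anxa1 from -0.13 to 0.02 without cuprizone 2 (-0.30 without cuprizone 1). The cause of these shifts was not tested, other than that leaving out a library leaves fewer samples. Calls over all genes at 5.5 weeks also moved by over 1.5 times without mock 1 (57 higher, 31 lower), without mock 3 (49 and 16), without cuprizone 1 (113 and 17) or cuprizone 3 (155 and 24), with no filter on low counts (381 and 162), and with the 6 (314 and 84) or 17 deposited libraries (614 and 175). For the change to 7 weeks the 2080 and 1405 calls became 890 and 746 with DESeq2, 1077 and 766 without mock 1, 2613 and 2320 without cuprizone 2, and 5883 and 4053 with the 17 deposited libraries; without cuprizone 1 or 3 the lower calls fell to 908 and 815. Counts past 2-fold grew with a minimum of 1 CPM, to 1927 higher and 2321 lower at 5 weeks and 3018 and 863 at 7 weeks, and in the fit of 9 libraries, to 3028 and 3664 and to 5569 and 930.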
